A study of Homo sapiens with 8 samples.

Results

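The 9 genes described here encode the enzymes that make serine and pass its carbon into the folate pool. They were taken as the rows of the deposited expression table with the symbols PHGDH, PSAT1, PSPH, SHMT1, SHMT2, MTHFD1, MTHFD1L, MTHFD2 and ALDH1L2, and all 9 were found among the 16782 genes of the table. RNA was measured in CAKI1 cells, an established human renal carcinoma line, in 4 control samples and 4 samples stimulated with hLcn-2. hLcn-2 is the iron-loaded holo-form of lipocalin-2, a secreted protein that binds iron through siderophores, and it was added at 5 µg/mL for 24 h. Recombinant human lipocalin-2 with a GST tag was produced in E. coli and loaded with iron-catechol. All 8 samples shared the same culture in high glucose medium with fetal bovine serum, followed by serum starvation for 24 h before stimulation, and the control samples received no hLcn-2. The series holds 1 cell line, and samples with iron-free lipocalin-2 or with iron alone were not analysed here. Both groups carried the numbers 1 to 4 in their labels. The labels do not say whether the samples came from separate cultures, so the p-values measure the spread between these samples, which may be technical.

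In serine synthesis, PHGDH oxidizes the glycolytic intermediate 3-phosphoglycerate, PSAT1 transfers an amino group from glutamate to the product, and PSPH removes the phosphate to give serine. Serine hydroxymethyltransferase then moves a carbon from serine to tetrahydrofolate and leaves glycine, with SHMT1 acting in the cytosol and SHMT2 in mitochondria. In mitochondria MTHFD2 oxidizes the loaded folate, MTHFD1L releases the carbon as formate and ALDH1L2 can burn it to carbon dioxide with production of NADPH, whereas in the cytosol the single protein MTHFD1 interconverts the folate forms and takes formate up again. This route feeds purine and thymidylate synthesis, and in many tumor cells several of these genes are known targets of the stress-responsive factor ATF4.

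Values are normalized counts on the CPM scale, that is, reads per library size, where each library size carries its own correction factor. Each gene is read at the 3′ end of its transcripts, about once per transcript, so levels of different genes are compared without division by length. Whether reads of all genes were counted alike was not tested, which limits such comparisons. Recovered reads per sample ranged from 1501563 in control 4 to 13953090 in control 1. A count of 3 reads was worth 0.211 to 1.98 normalized counts. Of 9 renal markers looked up, 7 had listed values. All 7, among them PAX8 and VIM, reached at least 1 normalized count in every sample. Their summed level was 2674 to 3508 in control samples and 2828 to 3717 in hLcn-2 samples. KRT19 and CA9 had no value listed under these symbols. The 4 markers of leukocytes, fibroblasts, mural cells and hepatocytes in the table (CD14, COL1A1, PDGFRB and ALB) summed to 6.35 to 7.24 in control and 3.95 to 7.61 in hLcn-2 samples, and CD14, PDGFRB and ALB were at 0 in at least 1 sample. The fibroblast marker COL1A1 also reached 1 normalized count in every sample (2.47 to 6.58). The renal marker PAX2 did so at a similarly low level (1.32 to 5.29), with as few as 2 reads in a sample. PTPRC, CD3E, PECAM1, VWF, HBB and HBA1 were also looked up and had no value listed under these symbols.

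The starts of the genes differ in the letters that stress and growth factors are known to bind. RefSeq promoters (GRCh38.p14, 250 bases before to 50 after a start) were found for 6 of the 9 genes, with 9 windows in all, and the promoters of SHMT2, PSPH and ALDH1L2 are not shown. Both strands were searched for TGATGNAA, the core letters of the element bound by ATF4 with a C/EBP partner, for CACGTG, the E-box bound by MYC, and for TGACNNNGC, the antioxidant response element bound by NFE2L2 (NRF2). TGATGNAA was in 3.62% of 35116 promoters of this length, CACGTG in 7.26% and TGACNNNGC in 13.3%. The 3 sequences below are those of the members that hold a match, 1 window a gene, with the match in capitals, 5′ to 3′ on the strand of the gene.
MTHFD2 (chr2:74198365-74198664, plus strand): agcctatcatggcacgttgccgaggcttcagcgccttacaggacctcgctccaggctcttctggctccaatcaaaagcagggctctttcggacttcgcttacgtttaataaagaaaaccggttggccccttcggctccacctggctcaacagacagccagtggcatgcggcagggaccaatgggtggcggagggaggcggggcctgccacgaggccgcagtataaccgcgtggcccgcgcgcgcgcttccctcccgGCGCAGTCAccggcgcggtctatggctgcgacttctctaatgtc
MTHFD1L (chr6:150866197-150866496, plus strand): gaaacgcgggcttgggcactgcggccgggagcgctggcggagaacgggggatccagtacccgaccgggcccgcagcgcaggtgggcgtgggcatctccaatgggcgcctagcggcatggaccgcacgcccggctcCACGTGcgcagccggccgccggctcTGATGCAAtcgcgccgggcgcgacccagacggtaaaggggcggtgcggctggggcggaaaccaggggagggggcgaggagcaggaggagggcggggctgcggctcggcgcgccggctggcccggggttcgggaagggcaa
MTHFD1 (chr14:64388103-64388402, plus strand): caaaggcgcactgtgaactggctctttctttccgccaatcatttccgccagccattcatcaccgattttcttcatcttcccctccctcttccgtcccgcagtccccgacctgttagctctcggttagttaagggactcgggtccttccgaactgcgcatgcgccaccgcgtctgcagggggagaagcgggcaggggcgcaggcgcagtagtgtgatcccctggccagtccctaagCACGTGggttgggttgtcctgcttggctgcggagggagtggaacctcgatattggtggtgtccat
The MTHFD2 window held a match to TGACNNNGC on the minus strand, read as GCGCAGTCA on the plus strand, with its first base 7 bases into the transcript. The MTHFD1L window held CACGTG at base -115 and TGATGCAA at base -90 from the start, and both also lay in 2 overlapping windows of that gene. MTHFD1 held CACGTG at base -15. The windows of PHGDH, PSAT1 and SHMT1, and the fourth window of MTHFD1L, held none of the 3 motifs. The matches are letters in these windows only. No binding was measured.

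The comparison asks what stimulation of tumor cells with iron-loaded lipocalin-2 did to these transcripts. Of the 9 enzymes, 7 had a higher mean in hLcn-2 samples, led by the mitochondrial folate enzymes MTHFD2 (1.62-fold of the control mean) and SHMT2 (1.59-fold) and the 3 serine synthesis enzymes PSAT1 (1.43-fold), PHGDH (1.41-fold) and PSPH (1.33-fold). MTHFD1L stood at 1.21-fold, while the cytosolic enzymes SHMT1 (1.05-fold) and MTHFD1 (0.930-fold) and the mitochondrial ALDH1L2 (0.902-fold) lay near the control mean. Without regard to the sample numbers, limma with Benjamini-Hochberg adjustment called 0 of the 9 and 0 of all 15593 genes tested (0% called), with an adjusted p of 0.9999 for each member. At an unadjusted p under 0.05 the same fit had 355 genes of either direction, and 3 of the 9 members (PSPH, SHMT2 and MTHFD2) were higher, against 1.21% of all genes tested. DESeq2 and the quasi-likelihood test of edgeR without the numbers also called 0 genes, with 284 and 324 at an unadjusted p under 0.05.

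Samples with the same number moved together across the 2 groups, so that the numbers were also used as a replicate block. With the block, limma called MTHFD2, SHMT2 and PSAT1 higher at an adjusted p under 0.05, which is 3 of the 9 members against 0.218% of all genes tested. On the recovered reads, edgeR's quasi-likelihood test with that block called those 3 and PSPH, which is 4 of the 9 against 1.12%. None of the members was called lower in either fit. The calls by limma with the block were lost without the intensity trend, where 0 genes were called (1567 at an unadjusted p under 0.05) and the adjusted p was 0.443 for each of the 3, and without pair 2 or without pair 3, where 0 members were called. Without pair 4 the same 3 were called, and without pair 1 or with a pseudocount of 0.1 MTHFD2 and SHMT2 were called but not PSAT1. No member was without overlap between the groups, a state that 0.891% of all genes tested reached on the higher side. PSAT1, PSPH, SHMT2, MTHFD2 and MTHFD1L were higher in 4 of 4 pairs, 5 of the 9 members against 9.93% of all genes tested. The median log2 fold change was 0.40 over the 9 members and 0.00083 over all genes tested, of which 7824 were higher and 7769 lower. The members were chosen with earlier results of these data known, so their count is a description. In bulk samples a larger share of cells that express a gene and more RNA per cell cannot be told apart.

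**Figure D1:**
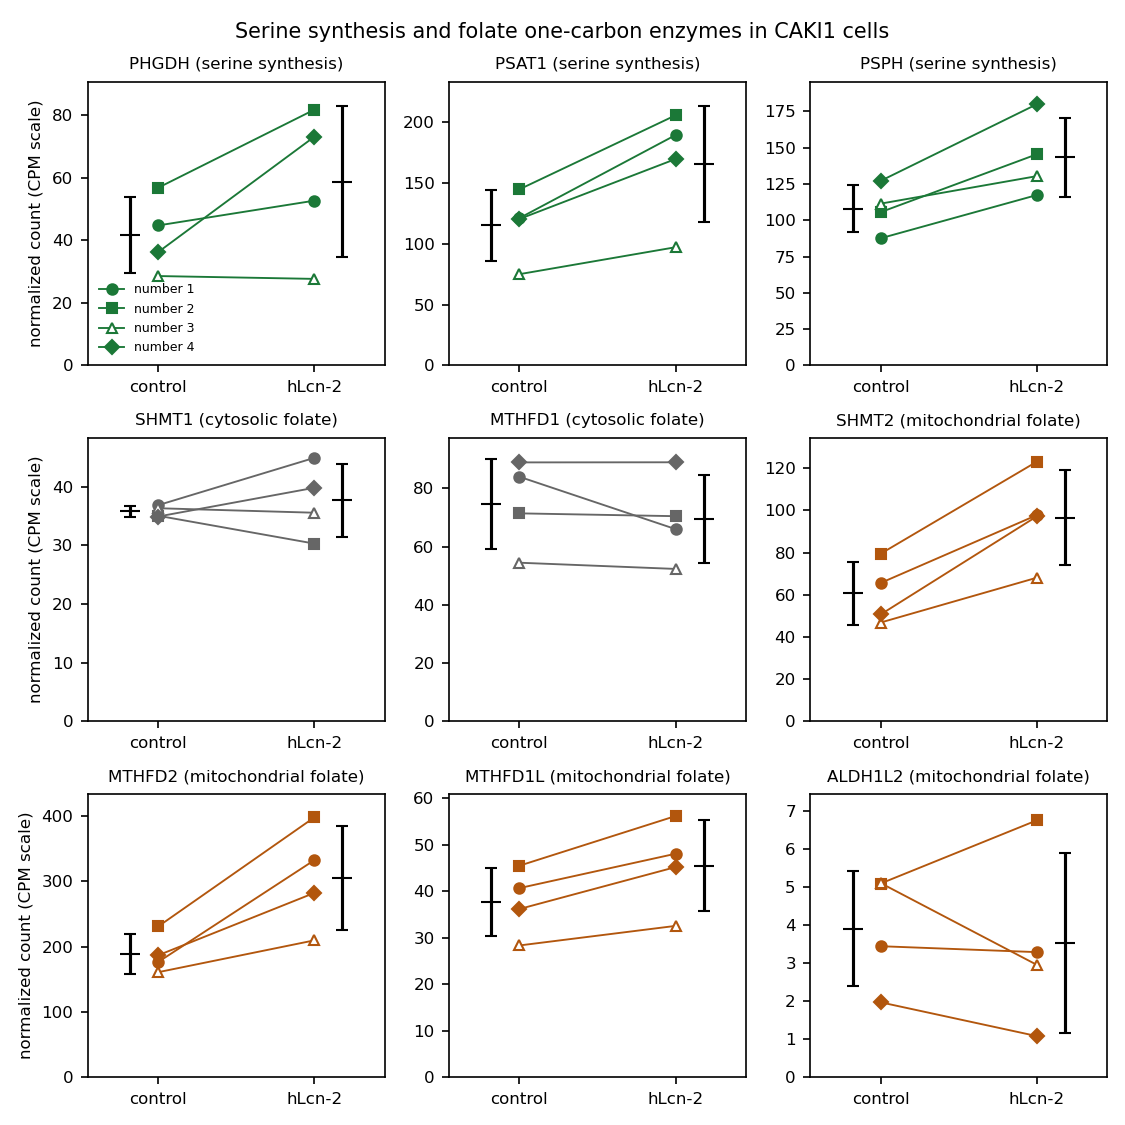
Normalized counts (CPM scale) of the 9 enzymes in control and hLcn-2 samples, 1 panel a gene, with lines joining samples of the same number and black bars giving the mean ± SD of 4 samples. In the panels of PSAT1, PSPH, SHMT2, MTHFD2 and MTHFD1L all 4 lines climb, and those of SHMT1 and MTHFD1 do not climb together. The number 3 samples (open triangles) are the lowest of their group for PHGDH, PSAT1, MTHFD1, SHMT2, MTHFD2 and MTHFD1L.

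MTHFD2, the mitochondrial dehydrogenase, differed by about as much as SHMT2, and which of them was ahead depended on the samples and the pseudocount used. Its normalized counts were 177, 231, 161 and 187 in controls 1 to 4 and 333, 398, 209.8 and 282 in hLcn-2 samples 1 to 4. All but one of the hLcn-2 samples exceeded every control, and hLcn-2 sample 3 lay below control 2. The mean went from 189 ± 30.1 to 306 ± 79.6 (SD, n = 4), a log2 fold change of 0.67 with an SE of 0.19. Within pairs 1 to 4 the difference was 0.91, 0.78, 0.38 and 0.59 on the log2 scale. The adjusted p with the block was 0.0174 by limma and 0.000838 by edgeR's quasi-likelihood test. The exact permutation test over 70 regroupings, two-sided, gave p = 0.0571, where 0.0286 is the smallest value it allows. MTHFD2 lies on chromosome 2 (74186172 to 74217565, plus strand, GRCh38, GENCODE 44) with 8 exons and a 3′ UTR of 3326 bases in its canonical transcript. On the opposite strand SLC4A5 overlaps its last exon, and since strand-specific counting is not given in the sources used here, reads of the pair cannot be told apart. SLC4A5 itself had no listed value. Near-identical copies can share reads with their parent. Of 14 pseudogenes named after members in GENCODE 44, 1 was in the table, MTHFD2P1, which had 3.52 ± 1.97 normalized counts in control and 4.56 ± 2.01 in hLcn-2 samples (SD, n = 4), a small fraction of the parent gene. These counts do not show how many reads were shared or lost between copies and parents, which was not tested.

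SHMT2, the mitochondrial hydroxymethyltransferase that hands carbon to MTHFD2, had a lower level. Its normalized counts were 65.6, 79.5, 46.9 and 50.7 in controls 1 to 4 and 97.8, 123, 68.1 and 97.2 in hLcn-2 samples 1 to 4. As for MTHFD2, hLcn-2 sample 3 was the low one of its group and lay under control 2, so the groups overlapped. The mean went from 60.7 ± 14.9 to 96.6 ± 22.5 (SD, n = 4), a log2 fold change of 0.66 with an SE of 0.21. The 4 pairs differed by 0.57, 0.62, 0.53 and 0.93 in the same direction. The adjusted p with the block was 0.0227 by limma and 0.00197 by edgeR's quasi-likelihood test, and the exact permutation test gave p = 0.0571. SHMT2 lies on chromosome 12 (57229573 to 57234935, plus strand) with 12 exons and a 3′ UTR of 577 bases. NDUFA4L2 overlaps its last exon on the opposite strand and had no listed value.

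MTHFD1L, the mitochondrial formate-releasing enzyme, moved by less. It had 40.7, 45.5, 28.4 and 36.2 normalized counts in controls 1 to 4 and 48.1, 56.2, 32.6 and 45.2 in hLcn-2 samples 1 to 4. Each hLcn-2 sample was above the control of its number, by 0.19 to 0.31 on the log2 scale. The means were 37.7 ± 7.29 and 45.5 ± 9.80 (SD, n = 4), and the log2 fold change was 0.26 with an SE of 0.20, which is within the spread between samples. It was 0.13 without control 3, 0.15 without hLcn-2 sample 2 and 0.41 without hLcn-2 sample 3. With the block it was not called either, with an adjusted p of 0.311 by limma and 0.216 by edgeR's quasi-likelihood test. The gene spans bases 150865679 to 151101887 of chromosome 6 (plus strand, 28 exons), and no other gene's exons overlap it on the opposite strand.

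ALDH1L2, the mitochondrial NADPH-producing enzyme, was the only member near the detection limit, with 3 to 68 reads a sample. Its normalized counts were 3.45, 5.10, 5.11 and 1.98 in controls and 3.30, 6.76, 2.96 and 1.09 in hLcn-2 samples. The order of the pairs was mixed, with 1 of 4 higher, and the log2 fold change of -0.21 had a 95% interval from -1.05 to 0.63. With the block the interval ran from -0.71 to 0.29, on a scale that understates changes of so low a gene. WASHC4 and NOPCHAP1 overlap exons of ALDH1L2 on the opposite strand, outside the last exon. WASHC4 stood far above it, at 122 ± 11.3 in control and 129.9 ± 10.2 in hLcn-2 samples (SD, n = 4).

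PSAT1, the aminotransferase of the serine route, was the only synthesis enzyme that limma called with the block. It had 121, 145, 75.1 and 120.5 normalized counts in controls 1 to 4 and 189.5, 206, 97.3 and 169.8 in hLcn-2 samples 1 to 4. The number 3 samples were the low ones of both groups, and hLcn-2 sample 3 lay below 3 of the controls. The mean went from 115 ± 29.2 to 166 ± 47.9 (SD, n = 4), a log2 fold change of 0.50 with an SE of 0.25. Without control 3 it was 0.31. Within pairs the differences were 0.64, 0.50, 0.37 and 0.49. The adjusted p with the block was 0.0317 by limma and 0.00458 by edgeR's quasi-likelihood test, and the exact permutation test, which does not use the pairs, gave p = 0.171. PSAT1 lies on chromosome 9 (78297125 to 78330093, plus strand, 9 exons) with a 3′ UTR of 1010 bases.

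PSPH, the phosphatase of the last step, had samples in another order than PSAT1. Its normalized counts were 87.6, 105.5, 111 and 127 in controls and 117, 145, 130.3 and 179.8 in hLcn-2 samples. Here number 4, not number 2, gave the highest sample of both groups, and number 3 was not the lowest. The mean went from 108 ± 16.3 to 143 ± 27.0 (SD, n = 4), a log2 fold change of 0.40 with an SE of 0.16, and the 4 pairs differed by 0.42, 0.46, 0.22 and 0.50. The adjusted p with the block was 0.0620 by limma and 0.0180 by edgeR's quasi-likelihood test, so the call depended on the tool. PSPH lies on chromosome 7 (56011051 to 56051604, minus strand, 8 exons).

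PHGDH, the entry enzyme of the route, had the widest spread of the 3 on the log2 scale, where its fold change had an SE of 0.31. Its normalized counts were 44.7, 56.8, 28.6 and 36.2 in controls and 52.6, 81.7, 27.6 and 73.1 in hLcn-2 samples. Pair 4 differed by 0.99 on the log2 scale and pair 3 by -0.045, so that 3 of 4 pairs were higher. The mean went from 41.6 ± 12.1 to 58.8 ± 24.1 (SD, n = 4), with a log2 fold change of 0.42 (95% interval -0.25 to 1.10). That value was 0.26 without control 3, 0.23 without hLcn-2 sample 2 and 0.74 without hLcn-2 sample 3. The adjusted p with the block was 0.251 by limma and 0.0869 by edgeR's quasi-likelihood test, and PHGDH was called in neither. It lies on chromosome 1 (119648411 to 119744218, plus strand, 12 exons).

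**Figure D2:**
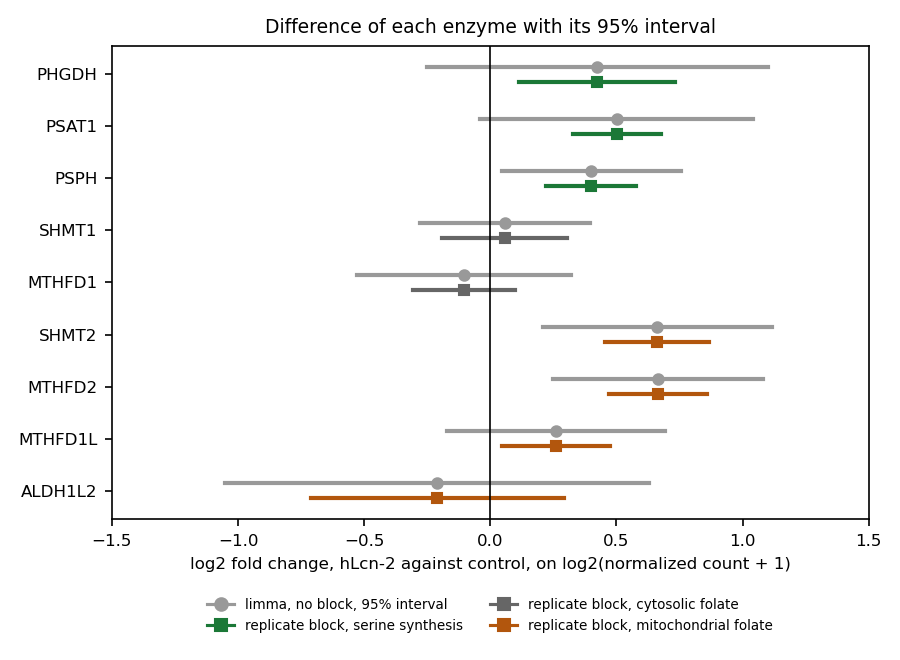
Log2 fold change of each enzyme (x axis, hLcn-2 against control on log2(normalized count + 1)) with its 95% interval from limma, without a block (gray circles) and with the replicate block (colored squares). The intervals with the block are narrower, and those of SHMT1, MTHFD1 and ALDH1L2 include 0 in both fits. The intervals of PHGDH, PSAT1 and MTHFD1L include 0 without the block only.

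The cytosolic enzymes did not show a difference beyond their spread. SHMT1, the cytosolic counterpart of SHMT2, had 36.8, 35.0, 36.3 and 34.9 normalized counts in controls and 44.9, 30.3, 35.5 and 39.8 in hLcn-2 samples. The controls lay close together, and hLcn-2 samples lay on both sides of them. Its log2 fold change of 0.057 had a 95% interval from -0.19 to 0.30 with the block. MTHFD1 had 84.0, 71.4, 54.5 and 88.9 normalized counts in controls and 66.0, 70.4, 52.3 and 88.9 in hLcn-2 samples. Its log2 fold change was -0.10, with an interval from -0.31 to 0.098. With the block these intervals leave out the differences of MTHFD2 and SHMT2. The adjusted p with the block was 0.883 for SHMT1 and 0.710 for MTHFD1 by limma. SHMT1 lies on chromosome 17 (18327860 to 18363563, minus strand, 12 exons), where SMCR8 overlaps its last exon on the opposite strand and had 7.83 ± 1.82 normalized counts in control and 7.71 ± 1.22 in hLcn-2 samples (SD, n = 4). MTHFD1 lies on chromosome 14 (64388031 to 64463457, plus strand, 28 exons) and shares exonic bases outside its last exon with ZBTB25 on the opposite strand, which had 21.9 ± 6.31 and 19.3 ± 2.63 (SD, n = 4).

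The mitochondrial and cytosolic enzymes were then compared within each sample, which tests whether their differences are unequal. The ratio of MTHFD2 to MTHFD1 was 2.10, 3.24, 2.96 and 2.10 in controls and 5.04, 5.65, 4.01 and 3.18 in hLcn-2 samples, so hLcn-2 sample 4 lay below control 2 and the others above all controls. Its mean went from 2.60 ± 0.585 to 4.47 ± 1.10 (SD, n = 4), a log2 difference of 0.77. The ratio of SHMT2 to SHMT1 went from 1.70 ± 0.432 to 2.65 ± 0.967 (SD, n = 4), a log2 difference of 0.61, and that of MTHFD1L to MTHFD1 from 0.513 ± 0.0958 to 0.664 ± 0.127 (SD, n = 4), a log2 difference of 0.37. Each of the 3 ratios was higher in 4 of 4 pairs, with pair differences of 0.44 to 1.26, 0.29 to 0.84 and 0.26 to 0.59. The exact permutation test over samples, two-sided, gave p = 0.0571, 0.0857 and 0.143, which after Benjamini-Hochberg adjustment over the 3 ratios came to 0.129, 0.129 and 0.143. None passed the threshold, and sign flips of 4 pairs cannot go below an exact p of 0.125. With single samples left out the difference of MTHFD2 to MTHFD1 had an exact permutation p of 0.0571 to 0.0857 in all cases but one. Without hLcn-2 sample 4 the groups no longer overlapped and p took its smallest value, 0.0286. Without control 2 they did not overlap either, and the exact permutation p was 0.0571. The difference of SHMT2 to SHMT1 was 0.39 without hLcn-2 sample 2.

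**Figure D3:**
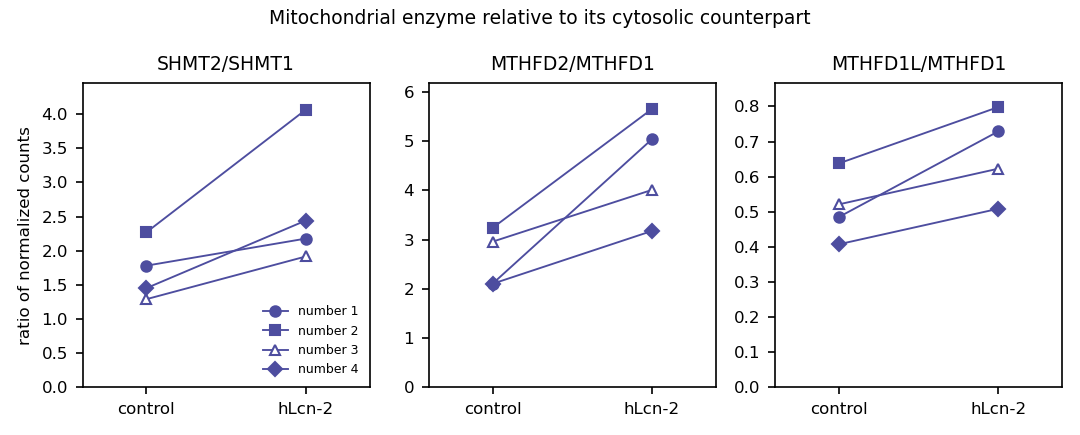
Ratio of normalized counts of each mitochondrial enzyme to its cytosolic counterpart within a sample, in control and hLcn-2 samples, with lines joining samples of the same number. All 12 lines climb, and in each panel the ranges of the 2 groups overlap.

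By level, MTHFD2 stood first in both groups and above the next gene, PSAT1, without overlap of their ranges. Its mean over the 8 samples, 247 normalized counts, was at the 95.5th percentile of the genes tested. PSAT1 and PSPH followed, and each was the higher of the pair in 2 of 4 samples of either group, so their order is not settled. SHMT2 and MTHFD1 exchanged places, though their ranges overlapped in both groups. SHMT2 was above MTHFD1 in 1 of 4 controls and in 4 of 4 hLcn-2 samples. PHGDH, MTHFD1L and SHMT1 were the next 3 in both groups, with overlapping ranges between neighbors, and ALDH1L2, at the 27.3th percentile, was below all other members in every sample.

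The members varied together among samples in an unequal way. PHGDH, PSAT1, SHMT2, MTHFD1L and MTHFD2, a group of 5 chosen after their values were seen, had a Pearson r of 0.80 to 0.97 between each other over the 8 samples, and of 0.85 to 0.97 when the group means were removed first. Their r with SHMT1 ran from -0.068 to 0.091. PSPH followed the 5 less closely, at 0.26 to 0.54, and at -0.11 to 0.21 after removal of the group means. MTHFD1 had an r of 0.10 to 0.54 with the 5, of 0.40 to 0.70 after removal of the group means, and of -0.72 to -0.34 without the number 3 samples. The samples share depth, scaling and number, and without the number 3 samples the r among the 5 was 0.81 to 0.99. The values are descriptions over 8 samples.

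Among the 9005 other genes with a mean of at least 10 CPM, those closest to each member by Pearson r over the 8 samples were named by rule, up to 2 a member. They were TFDP1 (0.98) and MTHFD1L itself (0.97) for PSAT1, H2AFX (0.98) and IL15RA (0.97) for PHGDH, IFRD1 (0.97) and TMEM41B (0.96) for SHMT2, and DNAJB11 and GPX8 (both 0.97) for MTHFD2. MTHFD1L had MARS (0.98), and MTHFD1 had TNFRSF10A and PSME3 (both 0.98). The nearest to PSPH were HNRNPA1 (0.95) and DUSP8 (0.94), to SHMT1 ZMAT2 (0.91) and ZNF557 (0.90), and to ALDH1L2, over 9006 genes, CLDN1 (0.98) and ZFP36L2 (0.95).

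The transcripts of the factors whose motifs were searched did not pass the test. ATF4, which drives the amino acid stress response, had 319, 329, 356 and 395 normalized counts in controls and 351, 415, 329 and 526 in hLcn-2 samples, with 3 of 4 pairs higher and pair 3 lower. Its log2 fold change was 0.19, with an adjusted p of 0.410 by limma with the block. MYC stood at 34.9 ± 17.9 and 46.7 ± 11.95 (SD, n = 4), and each of the 4 pairs was higher. Its log2 fold change was 0.53 (adjusted p 0.154 by limma with the block). NFE2L2 stood at 254 ± 25.9 and 284 ± 32.4 (SD, n = 4), again with all 4 pairs higher, and differed by 0.16 on the log2 scale (adjusted p 0.401 by limma with the block). Protein levels of these factors were not analysed here.

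The genes around the 9 enzymes were read from 8 lists of 51 genes, of which 44 were tested. Limma called 0 of the 44 with or without the block, with 11 and 1 at an unadjusted p under 0.05, against 12.2% and 2.28% of all genes tested. Of the 44, 24 had a higher and 20 a lower mean log2 level, and their median log2 fold change was 0.022. With the block, edgeR's quasi-likelihood test called 3 of the 44 higher, against 1.12% of all genes tested, and none lower. These 3 are named here after their values were seen. They were the neutral amino acid carriers SLC1A4 (log2 fold change 0.66, adjusted p 0.0236 by edgeR and 0.0873 by limma with the block) and SLC1A5 (0.42, 0.0134 and 0.0552), and PGAM1, which acts on 3-phosphoglycerate in glycolysis (0.42, 0.0468 and 0.154).

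By list, the carriers of serine and glycine had 6 of 7 tested genes higher, with a median log2 fold change of 0.19, and SLC38A1 (456 ± 48.7 to 521 ± 68.3, SD, n = 4) and SLC38A2 (573 ± 102 to 556 ± 93.6, SD, n = 4) at the highest level. The methionine cycle had 4 of 5 higher with a median of 0.28, MTR standing at 114 ± 14.5 and 124 ± 13.7 (SD, n = 4) and MAT2B at 118 ± 15.6 and 149.6 ± 32.1 (SD, n = 4). Of the other folate enzymes 5 of 7 were higher with a median of 0.038, and ATIC of purine synthesis stood at 132 ± 11.99 and 127 ± 16.04 (SD, n = 4). Folate uptake and retention had 2 of 7 higher with a median of -0.12, including the mitochondrial folate carrier SLC25A32 at 53.0 ± 10.3 and 50.3 ± 10.4 (SD, n = 4). Glycine cleavage had 1 of 3 higher, with DLD at 234 ± 24.4 and 232 ± 22.9 and GCSH at 3.54 ± 0.614 and 2.72 ± 0.998 (SD, n = 4). Transsulfuration had 2 of 3 higher, with CTH at 26.7 ± 5.63 and 30.6 ± 8.79 and MPST at 22.7 ± 8.86 and 17.4 ± 3.57 (SD, n = 4). Of the genes of serine use 3 of 6 were higher, with SPTLC2 of sphingolipid synthesis at 107 ± 21.6 and 97.4 ± 13.4 and SPTLC3 at 53.3 ± 29.8 and 46.1 ± 28.1 (SD, n = 4). The glycolytic genes around 3-phosphoglycerate had 1 of 6 higher and a median of -0.14, with ENO1 at 1603 ± 298 and 1383 ± 187 and PKM at 736 ± 93.2 and 703 ± 159 (SD, n = 4). These lists were not tested as sets. ALDH1L1, MTHFS, GLDC, MTRR, GNMT, SLC6A9 and SLC38A5 had no value listed under these symbols.

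**Figure D4:**
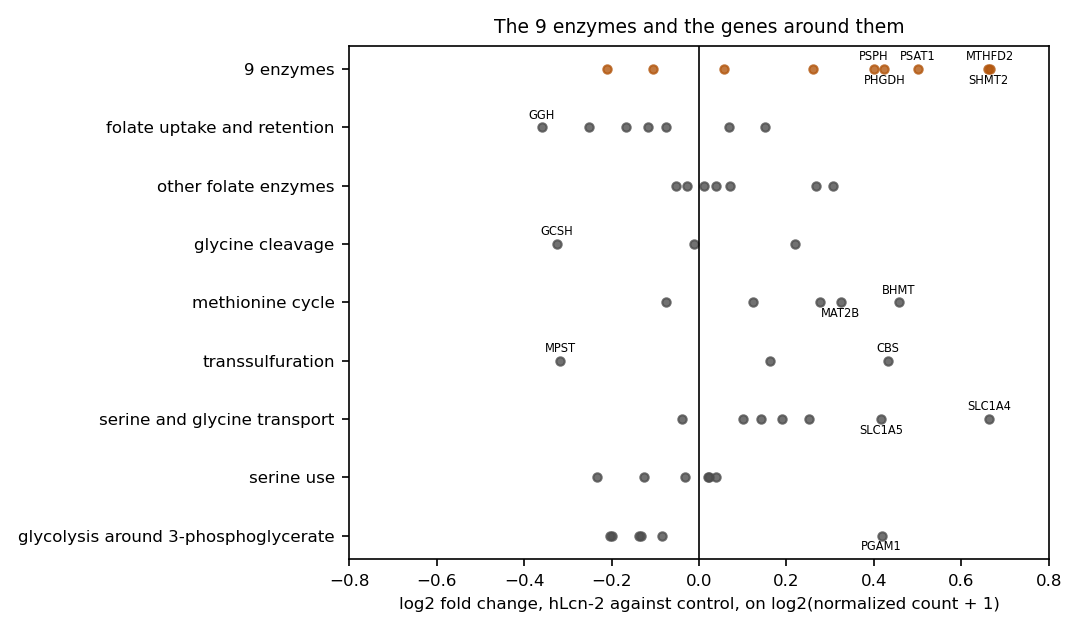
Log2 fold change (x axis, hLcn-2 against control on log2(normalized count + 1)) of the 9 enzymes (top row, orange) and of the 44 tested genes in 8 lists around them (gray, 1 point a gene). The points farthest from 0 are named, 5 of the 9 enzymes among them, and only SLC1A4 of the other genes reached the range of MTHFD2 and SHMT2.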

How the data were processed

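RNA of 4 control and 4 hLcn-2 samples was sequenced as QuantSeq 3′ libraries with UMI on a NextSeq 500 for 75 cycles (single-end). The authors deposited normalized counts per gene, a signal scaled to CPM of an adjusted library size. The submitters' processing notes name FastQC, MultiQC, STAR, HTSeq, edgeR and GRCh38, and strand settings and versions are not given in the sources used here. All 134256 values were whole multiples of 1 read within 0.01 read, so read counts were recovered. In 1 cell (TXNIP, control 1) a decimal comma was read as a point. The 2810 genes without a symbol were looked up in GENCODE 44. No column was left unmapped.

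The members, lists and tests were chosen with earlier results of these data known. Limma 3.58.1 (R 4.3.3) with an intensity trend was run on log2(normalized count + 1) after removal of genes that did not reach 1 CPM in 2 or more samples. The p-values were adjusted over all 15593 genes tested by the Benjamini-Hochberg method, and fold changes on this scale understate those of low genes. The number in the labels was added as a block because the deviations of same-numbered samples from their group means correlated at 0.48, 0.59, 0.61 and 0.31 in pairs 1 to 4. The edgeR 4.0.16 quasi-likelihood test and DESeq2 1.42.0 were run on recovered reads. Single values were tested by an exact permutation test over the 70 regroupings. Scripts were tested on simulated data. Alternatives were pseudocounts of 0.1 and 5, no filter, a mean of at least 10 CPM, scaling to the column total or by the median of ratios, no trend, and leaving out each sample or pair. Genes named were the 9 members, list genes with an unadjusted p under 0.05 without the block or an adjusted p under 0.05 by limma with it, the 2 genes of each list with the highest level, the 2 genes closest to each member by Pearson r, listed overlapping genes and pseudogenes, and the factors ATF4, MYC and NFE2L2. SLC1A4, SLC1A5, PGAM1, GAPDH, PGK1, MAT2A and the labelled points of the wider plot were named outside this rule, after their values were seen. Some genes that this rule names are not reported here.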

Additional observations from a re-analysis of the deposited data

Results flagged for a closer look

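Among 56 groups of 4 samples examined, 2 held a sample far from the other 3 by Dixon's criterion, where chance gives about 1 in 20, or 2.8. For MAT2B, a subunit of methionine adenosyltransferase, control 4 had 94.8 normalized counts and lay below the other controls by 0.950 of the range of the group. For SLC25A32, the mitochondrial folate carrier, control 3 had 37.7 normalized counts and lay below the others by 0.833 of the range. No group of the 9 enzymes was among them.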

How the results depend on the processing

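Of the 9 members, 6 kept their direction in all alternatives run (up to 27 a gene), and none of the 17 alternatives without the replicate block called any gene. With the block limma called 44 genes, 3 of them members. The block with edgeR's quasi-likelihood test called 233 genes, 4 members and 3 of the wider lists, and with DESeq2 173, 4 and 2. With the block and a pseudocount of 0.1 limma called 8 genes and 2 members (MTHFD2 and SHMT2), with 5 it called 45 and 3, and without the intensity trend 0, with 1567 at an unadjusted p under 0.05. Leaving out samples or pairs gave 0 to 58 genes, 0 to 3 members and 0 to 1 gene of the wider lists. With the block, limma called 14 genes without pair 1, 3 without pair 2, 0 without pair 3 (1624 at an unadjusted p under 0.05) and 58 without pair 4. Members called were 2 without pair 1 (MTHFD2 and SHMT2), 0 without pair 2, 0 without pair 3 and 3 without pair 4, and the adjusted p of MTHFD2 by limma ran from 0.0259 to 0.0853 and that of SHMT2 from 0.0259 to 0.0886. The log2 fold change of ALDH1L2 was 0.0014 with edgeR's test and the block. Leaving out samples or pairs moved it between -0.52 and 0.11, that of MTHFD1 between -0.25 and 0.021 and that of SHMT1 between -0.030 and 0.15 (-0.016 without pair 1). For PHGDH it ran from 0.23 to 0.74, for MTHFD1L from 0.13 to 0.41 and for PSAT1 from 0.31 to 0.74. The log2 difference of the ratio of SHMT2 to SHMT1 ran from 0.39 to 0.76 and that of MTHFD2 to MTHFD1 from 0.65 to 0.93 when single samples were left out. The cause of these changes was not tested. Control 4 had the fewest reads, which limits ALDH1L2 (3 reads there) more than the other members.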

Other observations

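The following genes were chosen after their values were seen. Among the glycolytic genes around 3-phosphoglycerate, GAPDH stood at 18.9 ± 6.27 normalized counts in control and 17.1 ± 6.28 in hLcn-2 samples (SD, n = 4), far below PGK1 at 639 ± 121 and 578 ± 76.7 (SD, n = 4), its neighbor in the pathway. Methionine adenosyltransferase showed a like contrast between its subunits, with MAT2A, the catalytic one, at 8.35 ± 2.57 and 7.94 ± 2.93 (SD, n = 4) and MAT2B, the regulatory one, at 118 ± 15.6 and 149.6 ± 32.1 (SD, n = 4). How the counting assigned reads of these genes was not tested.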
